A study of Homo sapiens with 27 samples.

Results

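The genes described here are 33 zinc finger genes of chromosome 19p12, the dense zinc finger cluster on the short arm of human chromosome 19 next to the centromere, out of 27546 gene symbols listed in any of the count tables. They lie on chromosome 19 between positions 19710472 and 24129968 (GRCh38.p14), a span of 4.42 Mb that opens with ZNF14 and closes with ZNF254. The genes were chosen by their symbols, after a measured value had drawn attention to them: ZNF493 was on with both RIPK2 guides in PC3 and off in the PC3 control. The PC3 guide comparisons are therefore described by their counts, with no test, while tests are given for 22Rv1, for DU145 and for the controls of these 2 lines against each other.

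Bulk RNA was sequenced in 27 libraries, 3 in each of 9 groups, from the prostate cancer lines PC3, DU145 and 22Rv1, all of human origin. In every line, cells with a control guide RNA (genotype WT in the labels) were set beside 2 populations labelled RIPK2 knockout, made with different guide RNAs against RIPK2, the kinase that relays signals from NOD receptors. RIPK2 gRNA 10 is common to the 3 lines; beside it, 22Rv1 received RIPK2 gRNA 1, and the other lines RIPK2 gRNA 2. The control libraries also carry a guide (control gRNA 1), the labels do not say whether populations are clones or pools, and they do not say whether the 3 libraries of a group came from separate cultures. P-values therefore measure the spread between these libraries, which may be technical.

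Most genes of the cluster encode KRAB zinc finger proteins, which carry a KRAB box at one end and a string of C2H2 fingers that read DNA at the other. The KRAB box recruits TRIM28 (KAP1), which brings the histone methyltransferase SETDB1 and HP1 proteins, and many of these repressors bind transposable elements: ZNF91 is known for SVA elements and ZNF93 for LINE-1. The cluster grew by tandem duplication in primates, so its genes resemble each other, and reads of one gene may have been counted for a near copy. How the authors treated such reads is not given in the sources used here. In DU145, 12 of the genes were listed in no row and count as 0, while others of the cluster, such as ZNF714 with 209 to 520 reads, were plainly counted.

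The likeness extends to the promoters. RefSeq gives a start site window for 26 of the 33 genes (GRCh38.p14), and the 250 bases before the start are used here; ZNF682 has 2 windows, and the first listed window of each gene was taken throughout. The 5 windows below show a gene that came on with both RIPK2 guides in PC3 (ZNF493), 2 that were on with gRNA 10 and off with the other PC3 guides (ZNF43 and ZNF626), 1 that was on in all 9 populations (ZNF431) and 1 that was off in every PC3 population (ZNF208). Each is printed 5′ to 3′ on the gene's own strand. Capitals mark CCAATCAG and GTCACTCA, the reverse complement of TGAGTGAC.
ZNF493 (chr19:21396883-21397132, plus strand): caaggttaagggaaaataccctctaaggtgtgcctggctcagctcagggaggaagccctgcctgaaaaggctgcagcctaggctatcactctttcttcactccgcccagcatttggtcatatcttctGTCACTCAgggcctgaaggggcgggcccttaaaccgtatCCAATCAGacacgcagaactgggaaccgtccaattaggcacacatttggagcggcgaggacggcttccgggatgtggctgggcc
ZNF43 (chr19:21836183-21836432, minus strand): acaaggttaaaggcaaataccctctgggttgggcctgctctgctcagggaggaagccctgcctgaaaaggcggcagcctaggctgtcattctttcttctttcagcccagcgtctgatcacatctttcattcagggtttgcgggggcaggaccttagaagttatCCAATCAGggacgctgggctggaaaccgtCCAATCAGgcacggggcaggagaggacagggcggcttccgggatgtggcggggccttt
ZNF626 (chr19:20661572-20661821, minus strand): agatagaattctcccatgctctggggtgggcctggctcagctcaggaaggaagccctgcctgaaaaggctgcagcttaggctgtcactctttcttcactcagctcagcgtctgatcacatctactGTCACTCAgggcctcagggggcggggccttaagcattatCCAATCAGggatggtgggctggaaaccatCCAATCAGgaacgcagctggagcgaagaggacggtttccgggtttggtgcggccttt
ZNF431 (chr19:21141790-21142039, plus strand): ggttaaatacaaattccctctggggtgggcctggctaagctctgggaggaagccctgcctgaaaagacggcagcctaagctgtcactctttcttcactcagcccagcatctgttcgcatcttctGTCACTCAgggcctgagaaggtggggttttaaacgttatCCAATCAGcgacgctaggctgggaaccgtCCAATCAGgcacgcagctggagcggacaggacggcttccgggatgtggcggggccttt
ZNF208 (chr19:22010944-22011193, minus strand): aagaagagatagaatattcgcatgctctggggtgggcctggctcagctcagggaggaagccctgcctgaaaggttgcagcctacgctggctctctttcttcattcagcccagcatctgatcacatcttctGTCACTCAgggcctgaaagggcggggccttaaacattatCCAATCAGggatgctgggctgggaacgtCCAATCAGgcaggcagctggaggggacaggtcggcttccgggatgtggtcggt

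CCAATCAG, which holds the CCAAT box letters, stood in the first listed window of 26 of 26 genes, on the gene's own strand in every one, and the first base of its nearest copy lay at -84 to -23 bases from the start (median -56.5). It was found in 3.98% of the first listed windows of all 27305 genes in the table, and the second window of ZNF682 lacks it. TGAGTGAC stood in 22 of 26 windows, always on the opposite strand and at a median of -123 bases from the start, against 1.07% of all windows. Both stood together in 22 of 26 windows, against 0.223% of all windows. Of the 61 genes with both, 47 are named ZNF, and these counts include the 22 genes of the cluster. CCGGAAG, the core letters of an ETS site, stood in 17 of 26 windows, against 8.82% of all. Motifs were searched on both strands, no 2 of them overlapped in these windows, and they were picked after the windows had been read. A match describes letters and says nothing of a bound factor.

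The motifs did not separate the genes by state in PC3. Of the genes off in the PC3 control and on with gRNA 10, 9 had a window: 9 held CCAATCAG and 8 held TGAGTGAC, with 7 to 10 CpG pairs. Of the genes on in the PC3 control, 13 had a window: 13 held CCAATCAG and 10 held TGAGTGAC, with 3 to 13 CpG pairs. The median was 8 CpG pairs in both sets.

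To describe states, a gene was called on where each of the 3 libraries of a group held at least 10 reads, off where none held more than 3, and between otherwise. Libraries held 17958558 to 20650819 counts each, and a count of 0 allows up to 3 reads, a similar share in all of them. In 22Rv1, 30 of 33 genes were on in the control, 29 with gRNA 1 and 29 with gRNA 10. DU145 had 10 on in the control, 12 with gRNA 2 and 9 with gRNA 10. PC3 had 13 on in the control, 16 with gRNA 2 and 27 with gRNA 10. The cluster was thus almost fully read in 22Rv1, mostly silent in DU145, and in PC3 its state depended on the guide population.

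**Figure D1:**
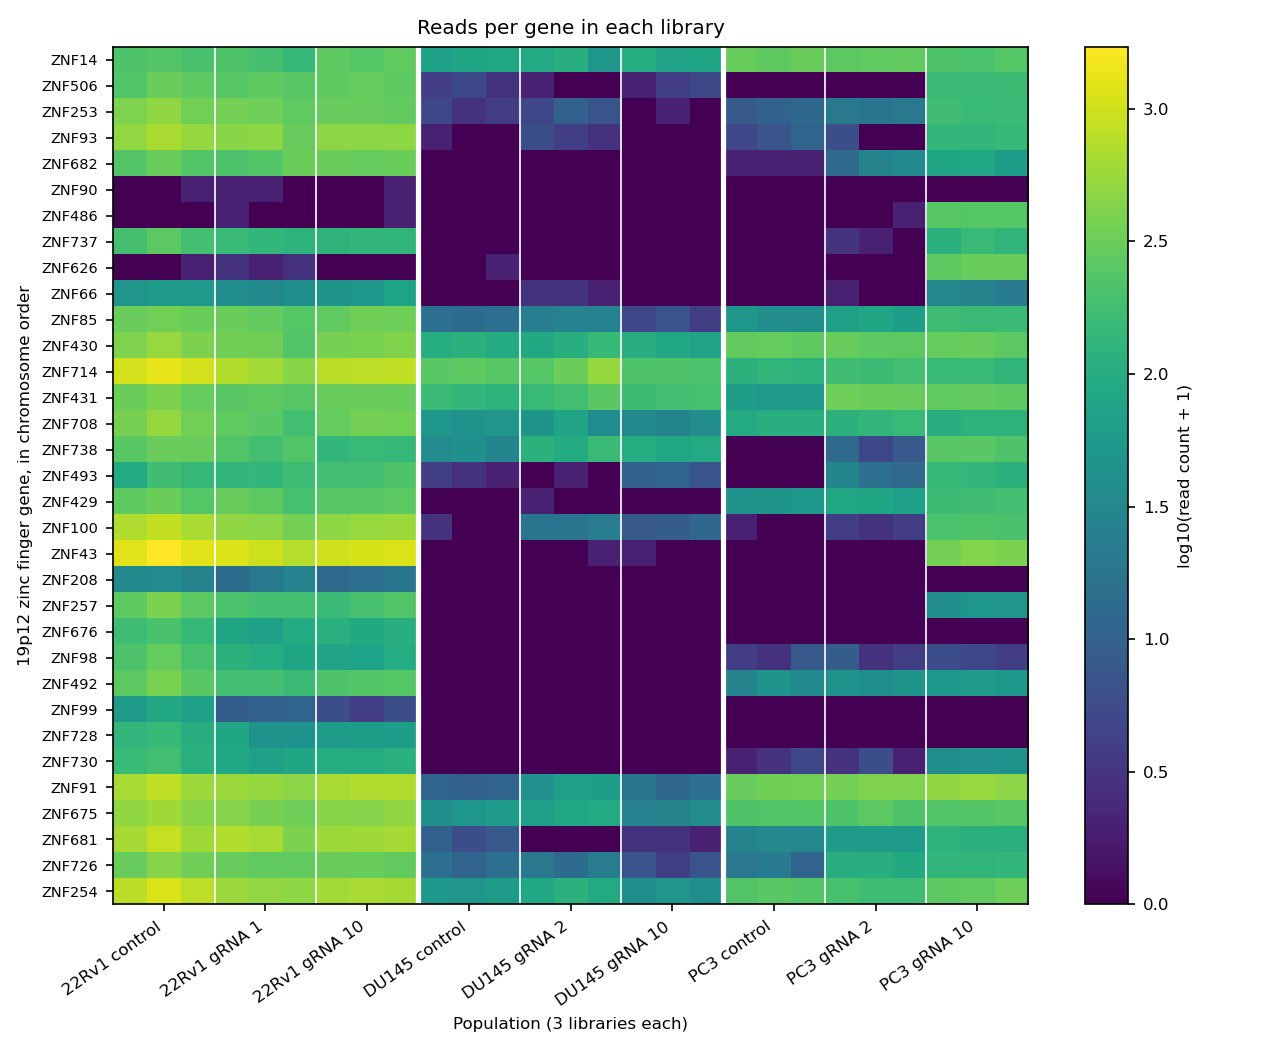
Read counts of the 33 genes (rows, in chromosome order) in the 27 libraries (columns, 3 per population), coloured by log10(read count + 1). Nearly all rows are bright in 22Rv1, most are dark in DU145, and in PC3 many rows that are dark with the control guide and gRNA 2 are bright with gRNA 10.

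The summed reads of the 33 genes show the same order. The sums were 10944, 14393 and 10692 in the 22Rv1 control, 9190, 8457 and 7115 with gRNA 1, and 9210, 9654 and 9968 with gRNA 10. In DU145 they were 816, 837 and 789 in the control, 1000, 1226 and 1486 with gRNA 2, and 830, 792 and 806 with gRNA 10. In PC3 they were 1796, 1873 and 1874 in the control, 2402, 2422 and 2367 with gRNA 2, and 4922, 5122 and 4960 with gRNA 10. In 22Rv1 every RIPK2 guide library lay below every control library, in DU145 the control and gRNA 10 overlapped, and in PC3 the 3 groups lay apart. In CPM (counts per library scaled to a common total), the PC3 sums were 89.9 ± 2.09 in the control, 119 ± 1.4 with gRNA 2 and 245 ± 6.02 with gRNA 10 (SD, n = 3). In bulk RNA, fewer cells that express a gene and less RNA per cell cannot be told apart.

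**Figure D2:**
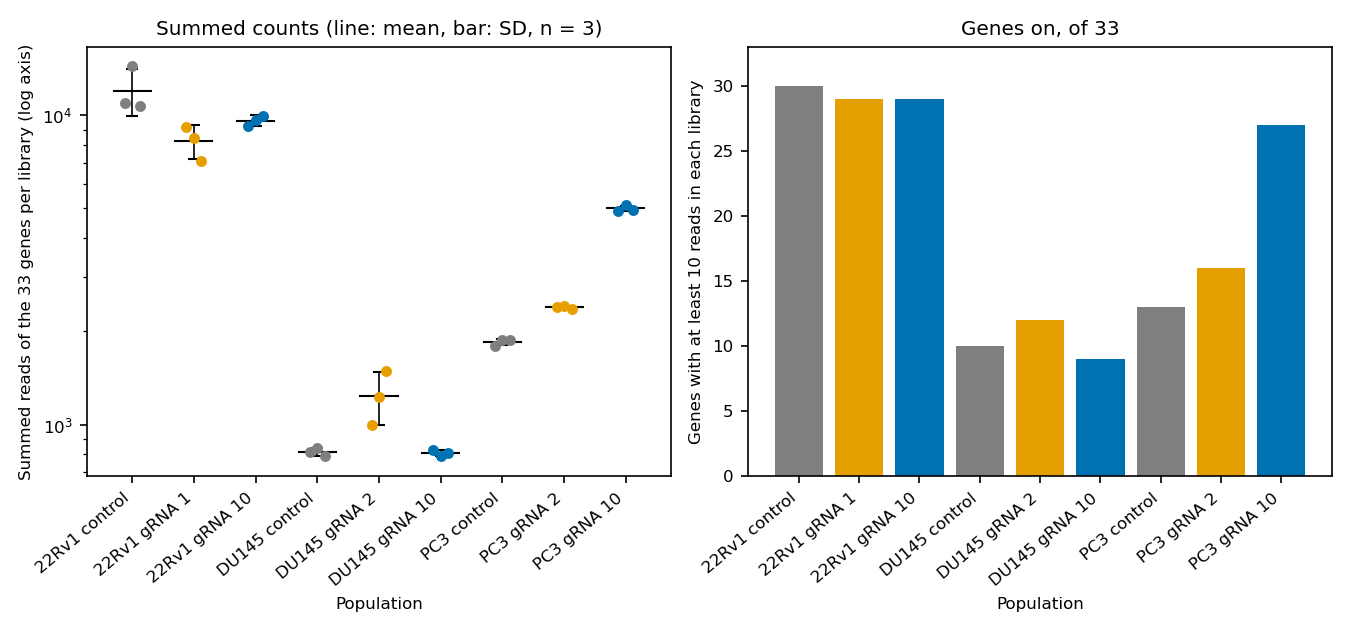
Left, summed reads of the 33 genes in each library (points, log axis) with the mean (line) and SD (bar) of each population, n = 3. Right, number of the 33 genes with at least 10 reads in each of the 3 libraries. The PC3 gRNA 10 libraries (4922 to 5122 reads) lie above the other PC3 libraries and below every 22Rv1 library, and the genes on in PC3 go from 13 to 16 to 27.

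The labels were checked first. RIPK2 stood at 16.7 ± 1.29 CPM (TMM scaled) in the 22Rv1 control, 8.68 ± 0.633 with gRNA 1 and 5.38 ± 0.189 with gRNA 10 (SD, n = 3), and both falls passed the edgeR quasi-likelihood test (Benjamini-Hochberg adjusted p = 8.76e-05 and 2.13e-06). In DU145 it stood at 42.4 ± 2.67 in the control, 11.8 ± 1.77 with gRNA 2 (adjusted p = 4.49e-06 by the same test) and 34.7 ± 1.51 with gRNA 10, where the difference did not pass (adjusted p = 0.0614). In PC3 it stood at 60.4 ± 1.74, 20.6 ± 0.947 and 27.2 ± 1.51. The library set labelled DU145 gRNA 10 thus kept most of its RIPK2 RNA, while RNA level alone does not measure whether the protein is lost. Of 11 prostate epithelial markers, 11 were on in 22Rv1, 6 in DU145 and 8 or 9 in PC3. Of 12 markers of other cell types, 1 to 3 were on in each population, and their summed level ran from 63.5 to 65.6 CPM in the PC3 control and from 79.3 to 83.9 CPM with PC3 gRNA 10. The part of these shifts in the results below was not tested. Mitochondrial reads took 0.515% to 16.7% of a library, with the top value in replicate 3 of 22Rv1 gRNA 1.

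In the control libraries, 22Rv1 expressed nearly the whole cluster, DU145 10 of its genes and PC3 13. ZNF43 held 1218, 1707 and 1219 reads there and 0 in every control library of DU145 and PC3. Its level in 22Rv1 was at least 492-fold higher than in DU145 and at least 505-fold higher than in PC3, computed against a floor of 3 counts per library. ZNF257 (271, 390 and 262 reads in 22Rv1) and ZNF737 (190, 260 and 184) were likewise at 0 in both other lines. In all, 16 of the 30 genes on in the 22Rv1 control were off in the DU145 control, where 5.90% of all symbols on in 22Rv1 were off. Of the same 30 genes, 13 were off in the PC3 control, against 6.94% of all symbols.

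Between 22Rv1 and DU145 controls, all 33 genes were tested in a fit with no filter on low counts. Under the usual filter some genes pass only through the line where they are high. In edgeR, 30 of 33 were called higher in 22Rv1 and 0 lower, while 25.2% of all 27546 symbols were called higher and 24.6% lower. The 3 that were not called, ZNF90, ZNF486 and ZNF626, held at most 1 read in any control library of these 2 lines. With the filter, the counts were 30 and 0 of 32 (38.7% and 37.2% of all 17356 genes), and the count of lower genes was 0 also at an unadjusted p below 0.05 and with DESeq2. Among the 7 genes with at least 10 reads in every library of the series, all 7 were called higher in 22Rv1, with a median log2 difference of 2.24. Of all 11364 genes under that filter, 38.3% were called higher and 38.8% lower.

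The PC3 control libraries took part in the choice of the cluster, so their comparisons with the other lines are a description. Of 32 genes, 29 stood higher in the 22Rv1 control than in the PC3 control and 1 lower at the same threshold (41.9% and 38.5% of all genes). The lower one was ZNF14, with 216, 230 and 200 reads in 22Rv1 and 304, 272 and 315 in PC3, a log2 difference of -0.50 ± 0.15 (SE). Many of the 29 were at 0 in the PC3 control. Of these, ZNF208, ZNF676, ZNF99 and ZNF728 had reads in 22Rv1 alone and passed the filter on low counts through that line.

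Between DU145 and PC3 controls, 5 of 32 genes stood higher in DU145 at that threshold (ZNF431, ZNF714, ZNF738, ZNF506 and ZNF493) and 14 lower, against 38.3% and 36.6% of all genes. Of the 5, ZNF493 (3, 2 and 1 reads against 0) repeats the value that chose the cluster, and ZNF506 (3, 4 and 2 against 0) rests on as few reads. ZNF91, the SVA repressor, held 10, 9 and 10 reads in DU145 and 302, 339 and 352 in PC3, a log2 difference of -5.26 ± 0.20 (SE). ZNF429 and ZNF492 were off in DU145, at 0 in all 3 control libraries, and on in PC3 with 43 to 52 and 27 to 43 reads (2 of the 19 genes off in DU145, against 5.40% of all symbols). The reverse switch was seen in ZNF738 alone, with 35, 41 and 28 reads in DU145 and 0 in PC3 (5.30% of all symbols on in DU145 were off in PC3), a level at least 11.8-fold higher in DU145.

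In PC3, ZNF493 held 0 reads in all 3 control libraries, 29, 14 and 12 with gRNA 2, and 146, 136 and 114 with gRNA 10. These values chose the cluster. Against the control, gRNA 2 was at least 6.23-fold higher, and for gRNA 10 the bound was at least 44.4-fold higher. The 3 groups did not overlap, and the gRNA 10 libraries stood at about the range of the 22Rv1 control (93, 173 and 142 reads).

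Around it, more genes of the cluster were on with gRNA 10 than with gRNA 2. Of the 16 genes off in the PC3 control, 11 were on with gRNA 10: ZNF506, ZNF682, ZNF486, ZNF737, ZNF626, ZNF66, ZNF738, ZNF493, ZNF100, ZNF43 and ZNF257. Over all symbols, 1.43% of those off in the PC3 control were on with gRNA 10. With gRNA 2, 2 of the 16 were on, ZNF682 and ZNF493, against 0.547% of all symbols. From gRNA 2 to gRNA 10, 8 of 13 genes went from off to on, against 1.31% of all symbols. These shares are a description, since the PC3 comparison chose the genes.

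The 11 genes came on from counts at or next to 0. ZNF43 held 0 reads in all 6 libraries of the control and gRNA 2, and 363, 431 and 390 with gRNA 10, a level at least 133-fold higher than in the control. ZNF626 held 0 in the same 6 libraries and 266, 303 and 313 with gRNA 10, at least 98.8-fold higher. ZNF486 held 0 in the control, 0, 0 and 1 with gRNA 2, and 248, 238 and 242 with gRNA 10, at least 81.6-fold higher. All libraries of gRNA 10 stood far above the rest for these genes, with no overlap. ZNF506 went from 0 in 6 libraries to 161, 160 and 164, and ZNF257 from 0 in 6 libraries to 39, 49 and 48. ZNF66 held 0 or 1 read in those libraries and 31, 27 and 21 with gRNA 10, the lowest counts among the genes that came on.

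In 4 genes some reads were already present with gRNA 2. ZNF738 held 0 in the control, 12, 4 and 7 with gRNA 2, and 252, 255 and 216 with gRNA 10, at least 81.0-fold higher than in the control. ZNF682 held 1, 1 and 1, then 12, 27 and 33, then 78, 86 and 64, a ratio of 76.6 between gRNA 10 and control (95% counting interval 25.9 to 374, exact binomial). ZNF100 held 1, 0 and 0, then 3, 2 and 3, then 209, 211 and 201. ZNF737 held 0, then 2, 1 and 0, then 120, 152 and 129. In these genes gRNA 2 stood between the other groups or at the floor. Such intervals and floors cover counting error only, since PCR copies could not be told from separate molecules.

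**Figure D3:**
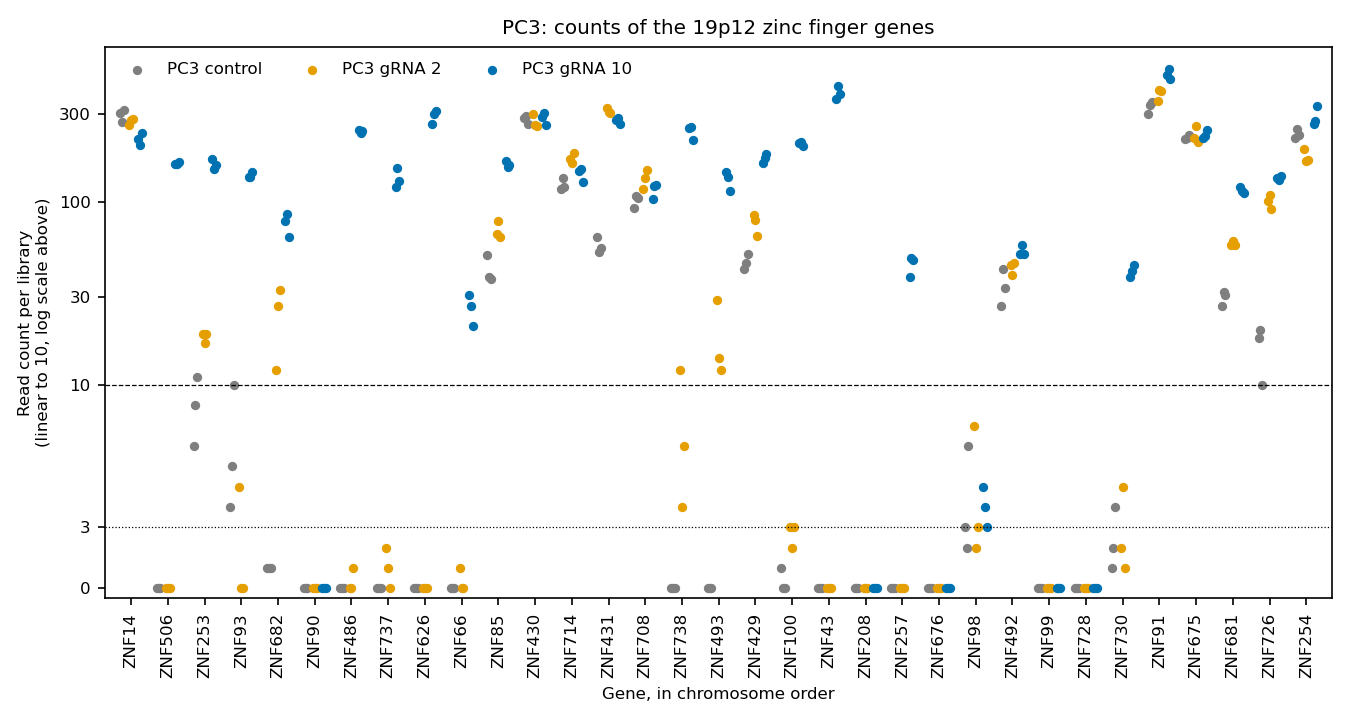
Read counts of the 33 genes (in chromosome order) in the 9 PC3 libraries, with the control guide in grey, gRNA 2 in orange and gRNA 10 in blue; the axis is linear to 10 and logarithmic above, and the lines mark 3 and 10 reads. ZNF43, ZNF626 and ZNF486 sit at 0 or 1 in grey and orange and at 238 to 431 in blue, while ZNF430 and ZNF675 overlap in all 3 colours.

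A further 3 genes were between states in the PC3 control and on with gRNA 10. ZNF253 held 7, 9 and 11 reads in the control, 19, 17 and 19 with gRNA 2, and 171, 150 and 159 with gRNA 10. ZNF93, the LINE-1 repressor, held 4, 6 and 10, then 5, 0 and 0, then 137, 137 and 145. ZNF730 held 1, 2 and 4, then 2, 5 and 1, then 39, 42 and 45. With gRNA 2, ZNF253 lay above control in every library, while ZNF93 and ZNF730 overlapped the control.

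Genes already on in the PC3 control went different ways. ZNF431 held 64, 53 and 56 reads in the control, 326, 309 and 304 with gRNA 2 and 278, 286 and 267 with gRNA 10, a log2 difference from control of 2.42 ± 0.10 and 2.21 ± 0.11 (SE). ZNF726 held 18, 20 and 10, then 91 to 109, then 135, 131 and 139. These 2 genes were high with both guides to a similar degree, unlike the genes that came on mainly with gRNA 10. ZNF429 (43 to 52, 65 to 85 and 162 to 182 reads), ZNF85 (38 to 51, 64 to 78 and 155 to 166) and ZNF681 (27 to 32, 58 to 61 and 111 to 121) were graded, with gRNA 2 between control and gRNA 10.

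The remaining genes on in PC3 differed from control by less than 1 on the log2 scale with either guide. ZNF675 held 221, 223 and 231 reads in the control, 222, 259 and 212 with gRNA 2, and 223, 230 and 247 with gRNA 10, a log2 difference of 0.02 ± 0.09 and 0.01 ± 0.09 (SE). ZNF430 differed from control by -0.05 ± 0.08 and -0.02 ± 0.08, ZNF708 by 0.38 ± 0.12 and 0.14 ± 0.12, and ZNF714 by 0.46 ± 0.10 and 0.15 ± 0.11. ZNF675 and ZNF430 overlapped the control with both guides, while ZNF708 and ZNF714 lay above it in every gRNA 2 library. ZNF91 differed by 0.22 ± 0.08 and 0.54 ± 0.07, ZNF492 by 0.32 ± 0.19 and 0.59 ± 0.18, ZNF254 by -0.42 ± 0.10 and 0.26 ± 0.09, and ZNF14 by -0.12 ± 0.08 and -0.48 ± 0.08. ZNF91 lay above control in all 6 guide libraries, ZNF14 below it in all 3 of gRNA 10, and ZNF254 below it with gRNA 2 and above it with gRNA 10. The cluster therefore did not move as 1 block: ZNF430, which overlapped the control with both guides, lies between ZNF66 and ZNF738, which went from off to on with gRNA 10.

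In PC3, 5 genes were off with gRNA 10 as in the other PC3 groups: ZNF90, ZNF208, ZNF676, ZNF99 and ZNF728, each at 0 in all 9 libraries. ZNF98 held 2 to 8 reads in every PC3 library. Apart from ZNF90, they lie in 1 stretch from ZNF208 to ZNF728, in which ZNF257 and ZNF492 were on with gRNA 10. That stretch was expressed in 22Rv1, where ZNF676 held 146 to 198 reads and ZNF98 195 to 292 in the control. Conversely, ZNF486 and ZNF626, on with PC3 gRNA 10, were off in every 22Rv1 library (0 or 1 read for ZNF486 and 0 to 2 for ZNF626). The PC3 gRNA 10 set of active genes was thus not the 22Rv1 set.

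Most genes next to the cluster kept their state in PC3. Of the 10 protein-coding genes before ZNF14, 9 were on in each of the 3 PC3 groups; the tenth, CILP2, held 6 to 12 reads in the control, 6 to 8 with gRNA 2 and 70 to 72 with gRNA 10 and so came on with gRNA 10. Of the 5 after ZNF254, 4 were on in each group; the first of these lies 5.08 Mb beyond ZNF254, across the centromere. ZNF101, which precedes ZNF14, held 213 to 260 reads in the PC3 control, 269 to 292 with gRNA 2 and 250 to 274 with gRNA 10. Inside the cluster, 2 genes outside the 33 also came on with gRNA 10: the pseudogene ZNF826P, from 0 in 6 libraries to 65 to 79 reads, and the long noncoding RNA LINC00664, from 0 or 1 to 30 to 43 reads. These 2 genes, and CILP2, were named after their values were seen. ZNF724, a coding zinc finger gene inside the span, held 27 to 40, 34 to 50 and 33 to 40 reads in the 3 groups.

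In 22Rv1, where the cluster was expressed, RIPK2 guides went with lower RNA of many of its genes. Of 30 genes tested, 0 rose and 19 fell with gRNA 1 at an adjusted p below 0.05 in edgeR, and 0 rose and 15 fell with gRNA 10. Over all 15198 genes tested, 25.6% rose and 22.9% fell with gRNA 1, and 20.0% rose and 20.6% fell with gRNA 10. The median log2 fold change of the 30 genes was -0.48 and -0.40, against 0.02 and -0.00 over all genes. For both guides the count of rises was also 0 at an unadjusted p below 0.05 in edgeR and 0 with DESeq2. Both comparisons share their control libraries, among which replicate 2 held the highest sum (14393 reads). Without it, 12 genes were called with gRNA 1, all lower, and 12 with gRNA 10, of which 11 were lower and 1, ZNF493, higher.

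ZNF99 fell furthest. It held 56, 85 and 69 reads in the control, 8, 9 and 10 with gRNA 1, and 5, 3 and 5 with gRNA 10, with no overlap. Its log2 fold change was -2.89 ± 0.27 (SE, adjusted p = 1.25e-05, edgeR quasi-likelihood test with Benjamini-Hochberg adjustment) and -4.03 ± 0.30 (adjusted p = 2.65e-06). It passed the filter on low counts through the control alone, and with no filter the values were -2.94 ± 0.30 and -4.04 ± 0.33 (edgeR adjusted p = 1.71e-07 and 1.02e-08). ZNF98, 2 genes before it, went from 210, 292 and 195 reads to 117, 100 and 80 and to 76, 75 and 100, a log2 fold change of -1.19 ± 0.19 and -1.53 ± 0.19 (edgeR adjusted p = 0.000579 and 0.000123). ZNF728 went from 132, 147 and 108 reads to 79, 43 and 43 and to 60, 62 and 64 (log2 fold change -1.18 ± 0.22 and -1.11 ± 0.22). In each of these genes all 6 guide libraries lay below all 3 control libraries.

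ZNF676 with gRNA 1 and ZNF208 with gRNA 10 were also among the 4 largest called falls. ZNF676 went from 170, 198 and 146 reads to 78, 70 and 97 with gRNA 1 and 112, 91 and 110 with gRNA 10 (log2 fold change -1.01 ± 0.19 and -0.77 ± 0.19, edgeR adjusted p = 0.00144 and 0.00711). ZNF208 held 34, 35 and 27 reads in the control and 12, 14 and 17 with gRNA 10 (-1.21 ± 0.31, edgeR adjusted p = 0.00972). With gRNA 1, ZNF208 held 13, 19 and 26 reads and did not pass (edgeR adjusted p = 0.0869), and it passed without replicate 3 of gRNA 1 (0.00699), the library with the most mitochondrial reads. ZNF738 went from 253, 315 and 298 reads to 224, 184 and 223 with gRNA 1 (-0.40 ± 0.14) and 138, 153 and 142 with gRNA 10 (-1.05 ± 0.14).

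The other genes called lower moved less. With gRNA 1 they were 14, with log2 fold changes from -0.86 (ZNF714) to -0.32 (ZNF431), and with gRNA 10 they were 9 beside ZNF676 and ZNF738, from -0.74 (ZNF737) to -0.42 (ZNF43). ZNF43, at 0 in most libraries of the other lines, held 1218, 1707 and 1219 reads in the 22Rv1 control, 1115, 975 and 751 with gRNA 1, and 1009, 1072 and 1144 with gRNA 10. Its falls (edgeR adjusted p = 0.0186 and 0.0472) were lost without control replicate 2, its highest library (0.0652 and 0.174). Of the 19 falls with gRNA 1, 12 held under every alternative that tested them, and of the 15 with gRNA 10, 11 did.

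The strongest falls were neighbours. Each of the 10 chosen genes from ZNF100 to ZNF730 (chromosome 19, 21722771 to 23147221) was tested, and 9 were called lower with gRNA 1 and 10 with gRNA 10. Of the 20 other genes tested, 10 and 5 were called lower. The median log2 fold change was -0.80 and -0.75 in the stretch and -0.35 and -0.23 outside it. This stretch was marked out after the fold changes were seen and is given without a test. It holds 5 of the 6 chosen genes that were not on in PC3 with gRNA 10. The coding zinc finger genes ZNF729 and ZNF723 also lie in the stretch but were not among the chosen genes. In 22Rv1, ZNF729 held 35 to 68 reads in the control, 21 to 47 with gRNA 1 and 31 to 41 with gRNA 10, overlapping the control. ZNF723 went the other way with gRNA 1, from 4 to 6 reads in the control to 14 to 21. With gRNA 10 it held 2 to 3 reads.

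**Figure D4:**
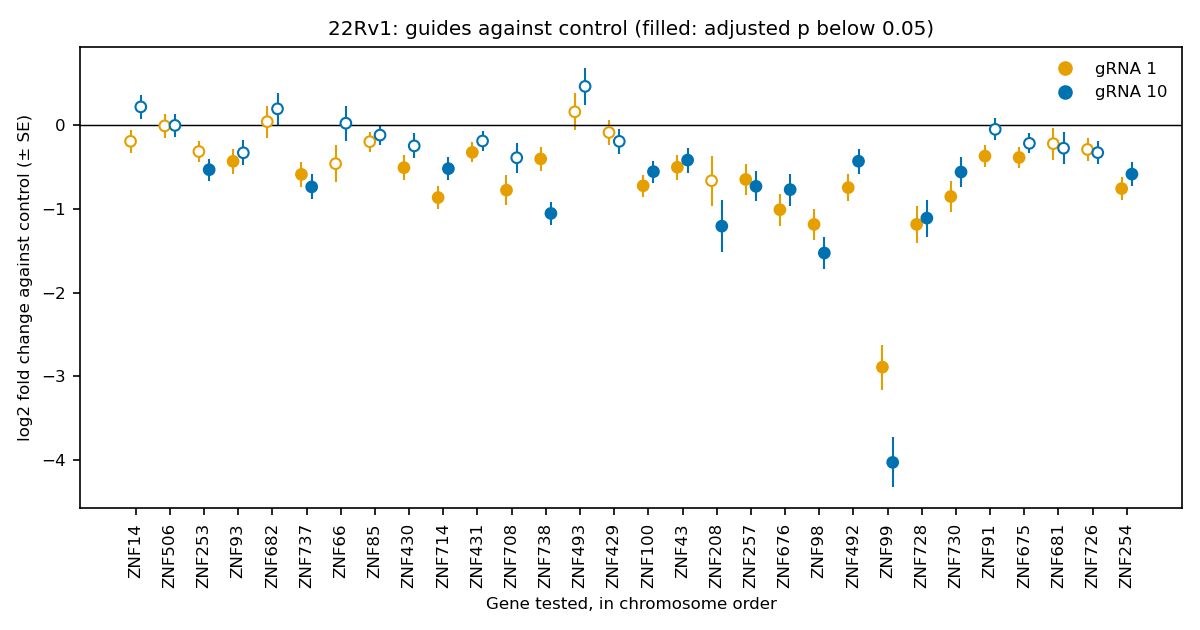
Log2 fold change against control (± SE) of the 30 genes tested in 22Rv1, in chromosome order, with gRNA 1 in orange and gRNA 10 in blue; filled points passed an adjusted p of 0.05. ZNF99 lies lowest at -2.89 and -4.03, and the points from ZNF100 to ZNF730 lie below 0 with both guides.

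The genes that did not pass in 22Rv1 include ZNF493. It held 93, 173 and 142 reads in the control, 133, 136 and 169 with gRNA 1, and 183, 183 and 219 with gRNA 10, a log2 fold change of 0.16 ± 0.22 and 0.46 ± 0.22 (edgeR adjusted p = 0.574 and 0.116). ZNF682 (0.04 ± 0.19 and 0.20 ± 0.19) and ZNF506 (226 to 312 reads in the control, 245 to 296 in the guide libraries) did not pass either. Between the 2 guides in 22Rv1, 1 gene was called higher with gRNA 10 (ZNF14, log2 difference 0.41 ± 0.14) and 2 lower (ZNF738, -0.65 ± 0.14, and ZNF99, -1.14 ± 0.39), against 16.8% and 18.8% of all genes. Of these, ZNF738 passed under every alternative run, while ZNF14 and ZNF99 were lost under other settings. Leaving out 1 library moved the count of 3 to 5 without replicate 3 of gRNA 1, and to 1 without replicate 2 of gRNA 1 or without any one replicate of gRNA 10.

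In DU145, more genes of the cluster rose with gRNA 2 than with gRNA 10. With gRNA 2, 6 of the 12 genes tested rose (ZNF100, ZNF91, ZNF738, ZNF254, ZNF85 and ZNF675) and 0 fell in edgeR (0 also at an unadjusted p below 0.05 and with DESeq2), while 17.1% of all 14908 genes rose and 17.0% fell. With gRNA 10, 2 rose (ZNF738 and ZNF100) and 2 fell (ZNF85 and ZNF726), against 20.2% and 19.8% of all genes. The median log2 fold change of the 12 genes was 0.71 with gRNA 2 and -0.20 with gRNA 10, against 0.01 and 0.00 over all genes. The other 21 genes had too few reads for the filter. Without it, the 21 genes listed in DU145 were tested: with gRNA 2, 6 rose and 1, ZNF681, fell (10.7% and 9.76% of all symbols), and with gRNA 10, 3 rose and 3 fell (13.1% and 12.1%). ZNF493 held 3, 2 and 1 reads in the control, 0, 1 and 0 with gRNA 2, and 9, 10 and 6 with gRNA 10, so it did not reach the on state in DU145 with either guide. Its log2 fold change with gRNA 10 in the unfiltered fit was 2.04 ± 0.59 (edgeR adjusted p = 0.0164). ZNF681 held 9, 5 and 7 reads in the control, 0 with gRNA 2, and 2, 2 and 1 with gRNA 10.

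ZNF100 was the DU145 gene that went from off to on. ZNF91 went from between to on with both guides, and ZNF85 and ZNF726 from on to between with gRNA 10. From between to off went ZNF681 with both guides, ZNF506 with gRNA 2 and ZNF253 with gRNA 10. From off to between went ZNF93 with gRNA 2, and ZNF493 and ZNF100 with gRNA 10. ZNF100 held 2, 0 and 0 reads in the control, 17, 17 and 22 with gRNA 2, and 7, 8 and 11 with gRNA 10. The ratio to control was 27.7 with gRNA 2 (95% counting interval 7.32 to 234) and 13.1 with gRNA 10 (3.27 to 114), and both passed edgeR's quasi-likelihood test with no filter on low counts (adjusted p = 6.44e-05 and 0.00204). With the filter, ZNF100 was tested only because of its gRNA 2 reads, so among the other 11 genes tested, 5 rose with gRNA 2 and 1 with gRNA 10. With gRNA 2 it went from off to on, 1 of the 19 genes off in the DU145 control, against 0.110% of all symbols. ZNF738 held 35, 41 and 28 reads in the control, 117, 97 and 149 with gRNA 2, and 99, 85 and 93 with gRNA 10, a log2 fold change of 1.90 ± 0.24 and 1.47 ± 0.24 (edgeR adjusted p = 0.000276 and 0.000846). These 2 genes, which lie either side of ZNF493 and ZNF429, were above control in all 6 guide libraries.

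ZNF91 and ZNF254 rose with gRNA 2. ZNF91 held 10, 9 and 10 reads in the control, 42, 69 and 62 with gRNA 2 and 17, 11 and 14 with gRNA 10. Its log2 fold change was 2.65 ± 0.29 with gRNA 2 (edgeR adjusted p = 0.000116) and 0.58 ± 0.34 with gRNA 10, which did not pass (0.202). ZNF254 held 52, 47 and 56 reads, then 87, 114 and 95, then 39, 47 and 40, a log2 fold change of 1.01 ± 0.17 with gRNA 2 (edgeR adjusted p = 0.00157) and -0.24 ± 0.18 with gRNA 10. Both genes stood above all other DU145 libraries with gRNA 2.

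ZNF85 went in opposite directions. It held 14, 13 and 14 reads in the control, 23, 26 and 26 with gRNA 2 and 4, 6 and 3 with gRNA 10, a log2 fold change of 0.95 ± 0.25 and -1.58 ± 0.33 (edgeR adjusted p = 0.0136 and 0.00386). The rise was lost without control replicate 2 (adjusted p = 0.0559) and with DESeq2 (0.0577). ZNF726 held 14, 10 and 14 reads in the control and 6, 3 and 6 with gRNA 10 (-1.27 ± 0.41, edgeR adjusted p = 0.0305), a call that was lost when 1 of 5 libraries was left out, control replicate 1 or 3 or any gRNA 10 replicate, with adjusted p up to 0.112. With counts this low, counting error is large. ZNF675, which rose with gRNA 2 by 0.82 ± 0.23 on the log2 scale (edgeR adjusted p = 0.0196), lost its call without control replicate 1 or 2 (0.0867 and 0.0652).

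Set against gRNA 2 directly, gRNA 10 had 8 of 12 genes lower and 0 higher in DU145 in edgeR (DESeq2: 6 lower and 0 higher; 0 higher at an unadjusted p below 0.05), where 19.2% of all genes were lower and 19.6% higher. With no filter, 9 of 21 were lower and 1, ZNF493, higher (12.3% of all symbols in each direction). Lower calls also outnumbered higher ones in other zinc finger lists: 6 of 10 tested genes related to ZNF91 on chromosomes 4 and 7 were lower and 1 higher (median -0.73), and 12 of 26 on 19q13.41 were lower and 1 higher (median -0.37), beside a median of -0.96 for the cluster. The 4 largest differences were in ZNF85 (-2.52 ± 0.30), ZNF91 (-2.06 ± 0.27), ZNF726 (-1.83 ± 0.39) and ZNF675 (-1.48 ± 0.24), with edgeR adjusted p of 0.000152, 0.000256, 0.00425 and 0.00107. All 4 held under every alternative that tested them, and the count fell to 5 when any one gRNA 10 library was left out. In PC3, by contrast, the summed reads were higher with gRNA 10 than with gRNA 2; the 2 lines were not tested against each other in this.

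**Figure D5:**
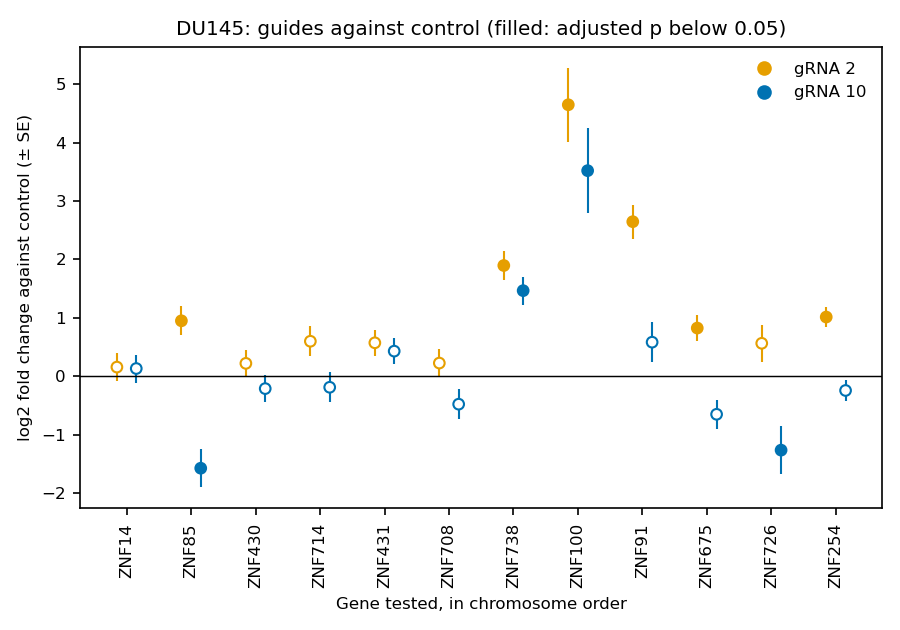
Log2 fold change against control (± SE) of the 12 genes tested in DU145, in chromosome order, with gRNA 2 in orange and gRNA 10 in blue; filled points passed an adjusted p of 0.05. ZNF100 and ZNF738 lie above 0 with both guides, while ZNF85 lies at 0.95 with gRNA 2 and -1.58 with gRNA 10.

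The gRNA 10 effect was compared between 22Rv1 and DU145 in 1 model. Of 32 genes tested, 5 differed at an adjusted p below 0.05, against 42.3% of all genes. Many of the 32 had no reads in DU145, so no effect there could be compared. The gRNA 10 effect was lower in 22Rv1 than in DU145 for ZNF100 (log2 difference -4.05 ± 0.63, edgeR adjusted p = 8.67e-06), ZNF738 (-2.50 ± 0.28, adjusted p = 8.36e-08) and ZNF431 (-0.60 ± 0.22, adjusted p = 0.0308). It was higher in 22Rv1 for ZNF681 (1.68 ± 0.61, adjusted p = 0.0307 by edgeR) and ZNF85 (1.47 ± 0.32, adjusted p = 0.00211). ZNF100 and ZNF738 fell with gRNA 10 in 22Rv1 and rose in DU145. The calls of ZNF431 and ZNF681 did not hold when single libraries were left out: the count fell to 3 without DU145 control replicate 3 or without DU145 gRNA 10 replicate 3.

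Other zinc finger genes were looked at beside the cluster, in lists drawn up with earlier results of these data known. Of 34 zinc finger genes of 19q13.41, the cluster on the long arm, 33 were tested in 22Rv1, and 15 rose and 1 fell with each guide (median log2 fold change 0.28 and 0.38). Of 15 zinc finger genes of chromosomes 4 and 7 related to ZNF91, 12 were tested, and 1 rose and 5 fell with gRNA 1 while 2 rose and 2 fell with gRNA 10. In PC3, 11 of these 15 were on in each of the 3 groups, and of the 34 genes of 19q13.41, 30 were on in the control, 31 with gRNA 2 and 32 with gRNA 10. In DU145, 3 of 26 genes tested on 19q13.41 rose and 4 fell with gRNA 2, and 1 rose and 10 fell with gRNA 10. Of the genes related to ZNF91, 10 were tested there, and 3 rose and 1 fell with gRNA 2 while 0 rose and 4 fell with gRNA 10. Other genes of the short arm, before ZNF14, had a median log2 fold change of 0.19 and 0.09 in 22Rv1, -0.15 and -0.27 in DU145, and -0.04 and -0.04 in PC3.

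The corepressor machinery of KRAB zinc fingers was expressed throughout. All 33 genes of a list of KRAB corepressors and heterochromatin factors were on in all 9 populations. In 22Rv1, 2 of them rose and 10 fell with gRNA 1, and 7 rose and 4 fell with gRNA 10; in DU145, 4 rose and 9 fell with gRNA 2, and 8 rose and 2 fell with gRNA 10. The share of this list called was 36.4% and 33.3% in 22Rv1, against 48.5% and 40.6% of all genes. In DU145 it was 39.4% and 30.3%, beside the shares of all genes given above (17.1% up and 17.0% down with gRNA 2, 20.2% and 19.8% with gRNA 10). TRIM28, the KRAB corepressor, stood at 622 ± 7.96 CPM in the PC3 control, 635 ± 7.94 with gRNA 2 and 579 ± 18.3 with gRNA 10 (SD, n = 3). SETDB1, the methyltransferase it recruits, stood at 35.7 ± 1.04, 48.0 ± 1.06 and 36.9 ± 1.73 CPM. Other genes of the list moved more in PC3, in both directions. In the same order, ATRX stood at 283 ± 22.9, 184 ± 3.42 and 147 ± 17.4 CPM, and CHD3 at 338 ± 2.54, 273 ± 10.4 and 199 ± 14.7. HDAC1 stood at 217 ± 3.26, 248 ± 1.62 and 316 ± 11.5, and TET1 at 6.80 ± 0.461, 5.65 ± 0.274 and 2.70 ± 0.264. TET3 stood at 25.1 ± 2.54, 33.7 ± 2.25 and 13.3 ± 1.76, above the control with gRNA 2 and below it with gRNA 10. They were named after their values were seen. The median log2 fold change of the list in PC3 was 0.08 with gRNA 2 and 0.04 with gRNA 10. In the tested lines TRIM28 changed by 0.30 ± 0.11 (edgeR adjusted p = 0.0432) with gRNA 1 and 0.03 ± 0.11 with gRNA 10 in 22Rv1, and by 0.13 ± 0.19 and -0.35 ± 0.19 in DU145. SETDB1 rose by 0.28 ± 0.09 with gRNA 2 in DU145 (edgeR adjusted p = 0.0322) and did not pass in the other 3 tested guide comparisons.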

How the data were processed

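RNA of 27 libraries was sequenced as strand-specific mRNA in paired reads of 150 bases, per the labels' protocols. Counts as deposited by the authors are raw, in a table for each line with symbols in rows (24385, 23534 and 23464), per the file headers. The submitters' processing notes name FastQC, STAR, edgeR and hg38, with no versions or roles; the counting program and annotation are not given in the sources used here. Rows that repeat a symbol were summed, and a symbol missing from a table counts as 0.

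The members and lists were chosen with earlier results of these data known. Libraries were scaled by TMM (0.902 to 1.04). edgeR 4.0.16 (R 4.3.3, limma 3.58.1) fitted the 9 libraries of a line together after filterByExpr (minimum count 10, minimum total 15), or all 27 libraries for comparisons between lines, by robust quasi-likelihood F tests (two-sided). P-values were Benjamini-Hochberg adjusted over all genes tested, with a threshold of 0.05. DESeq2 1.42.0 was an alternative. The code was tested on simulated data with 200 genes changed 2-fold. For gRNA 10 against control, 152 were recovered in 22Rv1 and 157 in DU145. Between PC3 and DU145 controls 155 were recovered, and 112 for the gRNA 10 effect in 22Rv1 minus that in DU145. False calls came to 4 to 8. Named were ZNF493, members that changed state within a line or between controls, the 4 largest called rises and falls of each tested guide comparison, RIPK2, TRIM28 and SETDB1. A fold against 0 counts used a floor of 3 counts per library and counting intervals are exact binomial at 95%. Libraries of a line with the same replicate number in their titles had correlations of deviations from -0.165 to 0.316. In some groups these numbers differ from those in the library names, and pairing by library name was not examined. Alternatives were RLE scaling, DESeq2, other filters, fewer libraries, a replicate block and leaving out each library.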

Additional observations from a re-analysis of the deposited data

Results flagged for a closer look

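Effects of gRNA 10 that differed between 22Rv1 and DU145 in a test of the difference itself are listed here. The log2 difference (22Rv1 effect minus DU145 effect) was -4.05 for ZNF100, -2.50 for ZNF738, -0.60 for ZNF431, 1.68 for ZNF681 and 1.47 for ZNF85. ZNF100, ZNF738 and ZNF85 passed under every alternative that tested them, while ZNF431 and ZNF681 did not. ZNF100, ZNF738 and ZNF85 were not tested under the filter of at least 10 counts in every library. In DU145, ZNF681 held 9, 5 and 7 reads in the control and 2, 2 and 1 with gRNA 10. ZNF100 held 2, 0 and 0 there in the control and 7, 8 and 11 with gRNA 10, and ZNF85 14, 13 and 14 and then 4, 6 and 3. The DU145 effects of ZNF681, ZNF100 and ZNF85 thus rest on few reads.

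Between 22Rv1 and PC3 the direction differed for 11 of the 25 members that were on in the 22Rv1 control and in the PC3 control or PC3 gRNA 10: ZNF253, ZNF93, ZNF737, ZNF738, ZNF100, ZNF43, ZNF257, ZNF492, ZNF730, ZNF726 and ZNF254. In each, every gRNA 10 library lay below every control library in 22Rv1 and above every control library in PC3 (in CPM). Of all genes expressed in the same way, 14.8% met this pattern. A gene off in the PC3 control and on with gRNA 10 lies above that control by definition. In 22Rv1, ZNF93 and ZNF726 were not called lower with gRNA 10 in the main fit. The calls of ZNF43, ZNF492 and ZNF730 there were lost when single libraries were left out. The difference between 22Rv1 and PC3 was not tested, since the PC3 comparison had chosen the genes.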

How the results depend on the processing

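Comparisons with the PC3 control are a description, since its libraries took part in the choice of the cluster. Members called between controls came to 30 (22Rv1 and DU145), 30 (22Rv1 and PC3) and 19 (DU145 and PC3). The last count was 18 to 19 with 1 library left out and 13 in a fit of those control libraries alone. The filter of at least 10 counts in every library gave 7, 7 and 7, since most members are at 0 in a line. The same filter left 1 member called for the gRNA 10 effect between lines, 3 with DU145 gRNA 2, 1 with DU145 gRNA 10 and 4 between the DU145 guides, again by testing fewer genes. When a fit held just the control and the guide compared, 12 members were called with 22Rv1 gRNA 1, all lower. With 22Rv1 gRNA 10, 18 were called in such a fit, 17 lower and 1 higher. The cause was not tested. Leaving out 1 library at a time gave 12 to 21 members called with 22Rv1 gRNA 1, 11 to 15 with gRNA 10, 1 to 5 between these guides, 4 to 8 with DU145 gRNA 2, 3 to 4 with gRNA 10, 5 to 8 between these guides, and 3 to 6 for the effect between lines. The median log2 fold change over the 27 members that passed the filter in PC3, which describes members chosen there, was 0.46 with gRNA 2 (0.41 to 0.61 with 1 library left out, 0.38 under the stricter filter) and 4.05 with gRNA 10 (3.71 to 4.25, and 0.55 under that filter). With members at 0 in the control set at their lower bound, the median was 3.15 over all 27 with gRNA 10; with gRNA 2, where 2 were at a bound and 7 had no fold and were dropped, it was 0.57 over 20. With the replicate block, built on the replicate numbers of the titles, 18 members were called with 22Rv1 gRNA 1 and 15 with gRNA 10. No count moved by over 1.5 times, and the numbers mark no known pairing. Members on or off per population stayed within 1.5 times under the other count and CPM limits and with any library left out. Members with under 10 reads are limited by depth.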
